A study of Mus musculus with 16 samples.

Results

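Genes under the control of the transcription factor NRF2 in the antioxidant response, together with genes of the pentose phosphate pathway, were followed in cells of hair follicle stem cell (HFSC) organoids with and without N1-acetylspermidine (N1-AcSpd), an acetylated form of the polyamine spermidine. The list held 34 mouse genes, and all 34 were found among the 32989 gene identifiers counted. They were selected on their known place in these pathways and with earlier results of the same libraries in view, for which no single measure was recorded, so every comparison between groups was treated as one the choice could have used. Counts over the list are therefore descriptions, and nothing is supported by them. Of the 34, 33 had a mean count of at least 5 over the libraries and were tested among 19049 genes, and the aldehyde oxidase gene Aox1 was below that, with between 0 and 7 tags in a library.

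The cells came from 4 C57BL/6J mice, and the labels title the untreated libraries WT (wild type). Organoids (3D–3C cultures, a gel culture that keeps HFSCs beside their direct progeny) were grown for 2 weeks, and N1-AcSpd was either left out (untreated) or given for 72 h. Cells positive for integrin α6 were then sorted by CD34, a surface protein of the hair follicle bulge, into CD34− progenitors and CD34+ HFSCs. Each mouse gave 1 library to each of the 4 groups (untreated CD34−, N1-AcSpd CD34−, untreated CD34+ and N1-AcSpd CD34+), making 16 libraries of 3′ RNA sequencing in which tags with unique molecular identifiers (UMIs) were counted per gene. The dose of N1-AcSpd and the age of the mice were not used here, and the fractions were sorted after treatment, so a cell that changed its CD34 level during the 72 h was counted in its new fraction.

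NRF2, encoded by Nfe2l2, is held at a low level in resting cells because KEAP1 binds it and directs it to degradation. Oxidants and electrophiles modify KEAP1, after which NRF2 accumulates, enters the nucleus, pairs with small MAF proteins and binds antioxidant response elements near its target genes. The targets make glutathione and thioredoxin, reduce quinones and carbonyls, store iron, and supply the NADPH that these reactions spend, much of it through the pentose phosphate pathway. In skin, NRF2 is known for protecting keratinocytes from oxidants and for a part in barrier formation. Since control is largely at the level of NRF2 protein, the level of Nfe2l2 mRNA need not follow the level of its targets.

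Library totals ran from 15480075 to 29074855 UMIs. N1-AcSpd CD34− libraries (25202264 to 29074855) were all deeper than untreated CD34− libraries (16179323 to 24451336), while the CD34+ groups overlapped. Cd34 itself ran from 2.87 to 3.65 CPM in progenitor libraries, where CPM are UMI counts per 1000000 of the TMM-scaled library total, and 43.4 to 64.0 CPM in HFSC libraries. The keratinocyte keratin genes Krt5 and Krt14 were at 909 CPM or more in every library. The 7 fibroblast markers summed to at most 1.52 CPM, the 5 immune cell markers to at most 3.38 CPM, and the 6 melanocyte markers to between 28.0 and 36.1 CPM. Pmel (up to 11.7 CPM) and Mitf (up to 23.9 CPM) made up most of the latter sum, and Tyr, Tyrp1, Dct and Mlana each reached at most 0.867 CPM. Of 4 endothelial markers, Kdr, Tie1 and Vwf reached at most 0.565 CPM, whereas Pecam1 was counted at 1686 to 2054 CPM.

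N1-AcSpd was compared with no treatment in each fraction, and as the mean of both effects, to ask how the antioxidant genes responded. Some members of the list were called higher with N1-AcSpd, 19 were called in no treatment comparison, and none was called lower. In CD34− cells 7 of 33 members were called higher (adjusted p under 0.05 over all 19049 genes), namely Nqo1, Cbr3, Akr1b8, Esd, G6pdx, Pgd and Taldo1, beside 0.373% of all genes called higher and 0.241% called lower. In CD34+ cells 8 members were called higher, namely Nqo1, Cbr3, Esd, Gsr, Gpx2, Prdx1, G6pdx and Pgd, beside 0.189% of all genes higher and 0.136% lower. In the mean of both fractions 14 members were called higher, beside 2.70% of all genes higher and 2.16% lower. Nqo1, Cbr3, Esd, G6pdx and Pgd were called in both fractions. Of 33 members, 30 had a positive log2 fold change in CD34− cells and 31 in CD34+ cells, with 28 positive in both. The fractions came from the same mice and cultures, so their agreement is not independent. The median log2 fold change of the members was 0.16 in CD34− cells and 0.20 in CD34+ cells, where the median over all genes tested was 1.24e-04 and -0.014.

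The 4 N1-AcSpd libraries lay wholly above the 4 untreated libraries for 14 members in CD34− cells and for 16 in CD34+ cells, 9 of them in both, and wholly below for none. Over all genes tested, ranges were separate and higher for 4.91% in CD34− and 3.38% in CD34+ cells, and separate and lower for 4.13% and 3.44%. Because the list was drawn up with such values in view, nothing is read from these shares.

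Calls within a single fraction depended on having 4 mice. With 4 mice 117 of 19049 genes were called in CD34− cells and 62 in CD34+ cells. How many of all genes stayed called with mice or libraries left out was not counted. The losses below are therefore not read as particular to the members. Without any 1 mouse, 1 member remained called in CD34− cells (7 with 4 mice). In CD34+ cells (8 with 4 mice) 1, 1, 3 and 0 members were called without mouse 1, 2, 3 and 4, and of the 33 members 17 had an unadjusted p under 0.05 without mouse 4 (edgeR). In the mean of both fractions (14 with 4 mice) 9, 10, 8 and 11 were called. Leaving out single libraries also moved the count by over 1.5 times: in CD34− cells 4 members were called without untreated CD34− mouse 1, N1-AcSpd CD34− mouse 2, 3 or 4, or N1-AcSpd CD34+ mouse 1, and in CD34+ cells 4 and 5 were called without untreated CD34+ mouse 1 and 2. A fit of only the compared groups called 0 members in CD34− cells (edgeR, with 18 of 33 at an unadjusted p under 0.05, where DESeq2 on all groups called 10) and 3 in CD34+ cells. DESeq2 also called more of all genes in CD34− cells, 558 beside 117 with edgeR on all groups, and added Gsr, Prdx1 and Txnrd1. In CD34+ cells it called 11 members, adding Fth1, Taldo1, Txn1 and Ugdh, with 431 of all genes called beside 62. In the mean it called 18 members, adding Nfe2l2, Ftl1, Osgin1 and Prdx6, with 1546 of all genes called beside 925. With mouse as a block, 11 members were called in CD34− cells, adding Ephx1, Gsr, Txnrd1 and Ftl1. Thinned to the smallest library total, 4 were called in CD34− cells (Nqo1, Cbr3, Akr1b8 and Esd) and 8 in CD34+ cells.

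Of 12 markers of keratinocyte differentiation 1 was called higher with N1-AcSpd in CD34− cells, 0 in CD34+ cells and 2 in the mean, and 0 were called lower. The shares of all genes were 0.373%, 0.189% and 2.70% higher and 0.241%, 0.136% and 2.16% lower. Their sum ran from 1717 to 2360.0 CPM in untreated and 2117 to 2920.3 CPM in N1-AcSpd CD34− libraries, and from 436 to 487 and 452 to 614 CPM in untreated and N1-AcSpd CD34+ libraries. The treated and untreated ranges of the sum overlapped in both fractions. Klk10, a skin protease gene, rose in CD34− cells (0.94 ± 0.18 (SE), adjusted p = 0.0420), and Ivl and Sbsn rose in the mean of both fractions. Of 7 HFSC markers 1, 0 and 2 were called lower in these comparisons, of which Nfatc1 fell in CD34− cells (-0.35 ± 0.072 (SE), adjusted p = 0.0480), and Postn and Nfatc1 fell in the mean. The part of these markers in the rise of the called antioxidant genes was not tested. In sorted bulk samples such as these, a change in the make-up of the cells and a change in RNA per cell cannot be told apart.

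**Figure D1:**
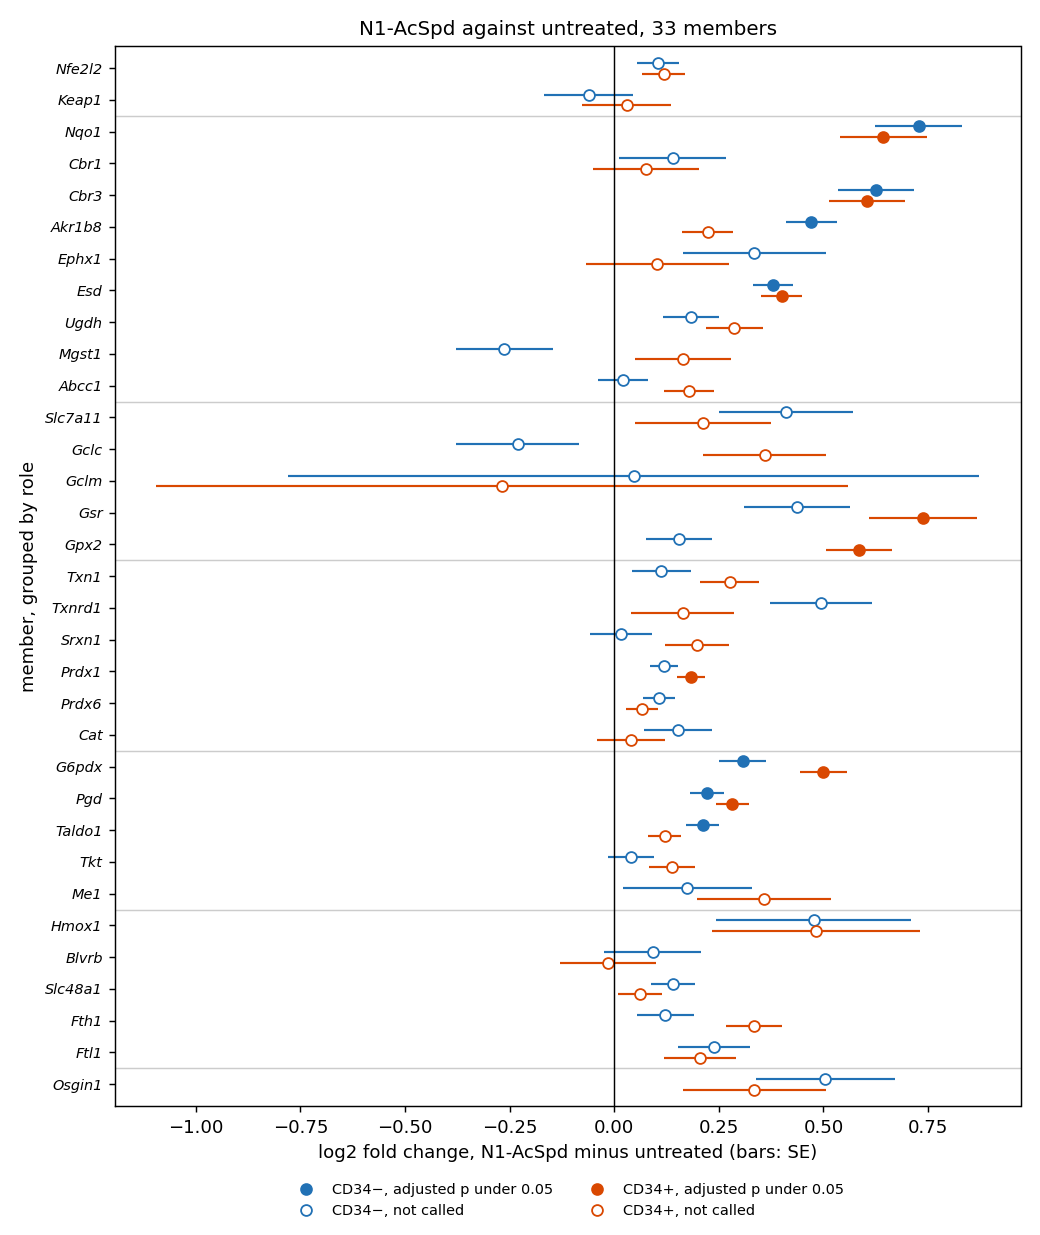
Log2 fold change (x axis) of each of the 33 tested members (y axis, grouped by role) for N1-AcSpd against untreated, in CD34− cells (blue) and CD34+ cells (orange), with bars of 1 SE. Filled points have an adjusted p under 0.05, and all 15 of them lie to the right of 0.

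Neither Nfe2l2 nor Keap1 was called for treatment in the reported edgeR fit. In CD34− cells of mice 1 to 4, Nfe2l2 was at 52.0, 58.6, 53.5 and 50.5 CPM untreated and 57.7, 57.8, 59.6 and 55.6 CPM with N1-AcSpd. In CD34+ cells it was at 48.6, 53.8, 53.4 and 48.6 CPM untreated and 57.1, 57.3, 53.7 and 53.8 CPM with N1-AcSpd. The ranges overlapped in CD34− cells, where mouse 2 was high without treatment, and in CD34+ cells. The log2 fold change was 0.10 ± 0.051 (SE), adjusted p = 0.393 in CD34− cells, 0.12 ± 0.051 (SE), adjusted p = 0.345 in CD34+ cells and 0.11 ± 0.036 (SE), adjusted p = 0.0912 in the mean, with 7 of 8 mouse-by-fraction pairs higher. With mouse as a block the mean passed the threshold (log2 0.11, adjusted p = 0.0346), as it did without untreated CD34− mouse 2 (log2 0.13, adjusted p = 0.0407). DESeq2 called the mean of Nfe2l2 as well, with 1546 of all genes called beside 925 with edgeR.

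Keap1, whose product marks NRF2 for degradation, was at 13.6, 11.5, 11.9 and 10.96 CPM in untreated and 13.3, 11.2, 10.5 and 11.03 CPM in N1-AcSpd CD34− libraries. It was at 16.6, 16.1, 13.7 and 12.7 CPM in untreated and 16.3, 15.8, 15.3 and 13.0 CPM in N1-AcSpd CD34+ libraries. Treated and untreated libraries overlapped in both fractions, with log2 fold changes of -0.061 ± 0.11 (SE), adjusted p = 0.901 and 0.030 ± 0.11 (SE), adjusted p = 0.971. An antisense gene, Gm16754, overlaps Keap1 with 199.8% of its mean count, and the use of strand in counting was not stated, so part of these tags may be of either gene. Of 15 other regulators and partners of NRF2 (the small MAF genes, Bach1 and Bach2, Cul3, Sqstm1 and others), 0 were called in any treatment comparison by edgeR. An unadjusted p under 0.05 was found for 3 in CD34− cells, 4 in CD34+ cells and 4 in the mean. Over all 19049 genes 117, 62 and 925 were called in these comparisons, and 2593, 2505 and 3952 had an unadjusted p under 0.05. With so few calls over all genes, 0 of 15 is not read as a lack of change in the regulators.

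Of 9 tested genes that detoxify quinones, carbonyls and epoxides, 4 were called higher in CD34− cells, 3 in CD34+ cells and 5 in the mean. The shares of all genes called higher were 0.373%, 0.189% and 2.70%. Nqo1 (ENSMUSG00000003849, chromosome 8, 107388225 to 107403206 on GRCm38), the quinone reductase gene often used as a readout of NRF2, was at 7.14, 6.51, 7.10 and 6.58 CPM in untreated and 10.7, 11.2, 12.4 and 11.03 CPM in N1-AcSpd CD34− libraries. In CD34+ libraries it was at 11.4, 10.9, 13.4 and 10.5 CPM untreated and 18.3, 15.8, 22.1 and 16.0 CPM with N1-AcSpd. All treated libraries exceeded all untreated ones of their fraction, and the treated CD34− libraries reached the level of the untreated CD34+ libraries. The log2 fold change was 0.73 ± 0.10 (SE), adjusted p = 0.00836 in CD34− and 0.64 ± 0.10 (SE), adjusted p = 0.0186 in CD34+ cells, with 8 of 8 pairs higher.

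Cbr3, a carbonyl reductase gene (ENSMUSG00000022947, chromosome 16, 93683215 to 93690990), was at 13.8, 16.5, 13.8 and 18.3 CPM in untreated and 22.5, 25.2, 23.5 and 25.1 CPM in N1-AcSpd CD34− libraries. The CD34+ libraries held 18.7, 22.3, 17.7 and 19.6 CPM untreated and 31.0, 29.8, 29.1 and 28.995 CPM with N1-AcSpd. Its ranges did not overlap in either fraction, and its log2 fold changes were close to those of Nqo1, at 0.63 ± 0.091 (SE), adjusted p = 0.00931 and 0.60 ± 0.091 (SE), adjusted p = 0.0144. Cbr1, the other carbonyl reductase of the list, had 0.14 ± 0.13 in CD34− and 0.076 ± 0.13 in CD34+ cells and was called in neither.

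Akr1b8, an aldo-keto reductase gene, was at 10.7, 11.4, 11.3 and 13.1 CPM in untreated and 15.6, 15.2, 16.4 and 17.2 CPM in N1-AcSpd CD34− libraries. It was at 12.1, 12.3, 11.8 and 12.6 CPM in untreated and 14.5, 13.7, 13.7 and 15.03 CPM in N1-AcSpd CD34+ libraries. The groups did not overlap in either fraction, and the test was passed in CD34− cells (0.47 ± 0.060 (SE), adjusted p = 0.00545) but not in CD34+ cells (0.22 ± 0.061 (SE), adjusted p = 0.149). Esd, whose product hydrolyses S-formylglutathione, was at 208, 237.6, 215 and 222 CPM in untreated and 268, 303, 283 and 295 CPM in N1-AcSpd CD34− libraries. It was at 187, 202, 183 and 192 CPM in untreated and 257, 258, 252 and 242 CPM in N1-AcSpd CD34+ libraries. Esd rose by nearly equal steps in the fractions, 0.38 ± 0.048 (SE), adjusted p = 0.00545 and 0.40 ± 0.048 (SE), adjusted p = 0.00674, and its pseudogene copies held at most 2.13% of its counts each.

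Ugdh makes UDP-glucuronate for glucuronidation and matrix sugars. It was at 12.5, 11.4, 12.2 and 10.6 CPM in untreated and 13.8, 12.7, 12.7 and 13.7 CPM in N1-AcSpd CD34− libraries, and at 21.1, 20.1, 22.4 and 24.8 CPM in untreated and 26.4, 25.7, 27.2 and 28.5 CPM in N1-AcSpd CD34+ libraries. Within each fraction no library of one condition reached into the range of the other. In the reported edgeR fit the changes passed the test only as their mean (0.24 ± 0.048 (SE), adjusted p = 0.0157), against adjusted p = 0.247 and adjusted p = 0.0957 within fractions. Ugdh was called in CD34+ cells by DESeq2, and by edgeR without untreated CD34+ mouse 4. An overlapping gene model on the same strand, Gm43552, was counted at 124% of Ugdh. It shares 158 identical bases with the end of a Ugdh transcript, so part of these tags may be of either gene. Ephx1 (epoxide hydrolase), Mgst1 (a membrane glutathione transferase) and Abcc1 (an export pump) were not called, with log2 fold changes from -0.26 (Mgst1, lower in 4 of 4 mice) to 0.34 (Ephx1) in CD34− and from 0.10 (Ephx1) to 0.18 (Abcc1) in CD34+ cells. Ephx1 was called in CD34− cells with mouse as a block (log2 0.33, adjusted p = 0.0260).

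Leaving out a mouse kept the sign of the called changes of these genes but ended some calls. In CD34− cells the calls not made were Nqo1 without mouse 1, 2 or 4 (0.71 to 0.78), Cbr3 without any 1 mouse (0.59 to 0.69), Akr1b8 without mouse 1, 2 or 3 (0.45 to 0.50) and Esd without mouse 3 or 4 (0.37 to 0.39), with the range of the log2 fold change without each mouse in parentheses. In CD34+ cells they were Nqo1 without mouse 1, 2 or 4 (0.62 to 0.68), Cbr3 without any 1 mouse (0.56 to 0.67) and Esd without mouse 1, 3 or 4 (0.38 to 0.42), and single libraries ended the call of Nqo1 (untreated CD34+ mouse 1, 2 or 4, 0.53 to 0.74 over all) and of Cbr3 (untreated CD34+ mouse 1, log2 0.58, adjusted p = 0.0613). In the mean of both fractions Nqo1, Cbr3, Akr1b8 and Esd kept their call without each mouse, and Ugdh lost it without mouse 1, 2 or 3 (0.22 to 0.26) and after thinning to equal totals (log2 0.22, adjusted p = 0.0548).

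Among 5 genes of glutathione synthesis and reduction, Gsr and Gpx2 were called in CD34+ cells and 0 in CD34− cells. Beside these, 0.189% and 0.373% of all genes were called higher. Gsr (glutathione reductase, which regenerates glutathione with NADPH) was at 9.20, 7.02, 9.57 and 9.06 CPM in untreated and 11.1, 10.7, 14.7 and 10.7 CPM in N1-AcSpd CD34− libraries. In CD34+ libraries it was at 5.35, 5.87, 5.96 and 5.19 CPM untreated and 9.17, 8.88, 11.2 and 8.10 CPM with N1-AcSpd, the largest log2 fold change of any member in either fraction (0.74 ± 0.13 (SE), adjusted p = 0.0331). The CD34− groups did not overlap either (0.44 ± 0.13 (SE), adjusted p = 0.135), and with mouse as a block Gsr was called there too (log2 0.43, adjusted p = 0.0423). Its CD34+ call was lost without any 1 mouse (0.68 to 0.78) and without 6 of 16 single libraries. DESeq2 gave no adjusted p for Gsr in CD34+ cells, and called it in CD34− cells and in the mean. The mean of both fractions (0.59 ± 0.090 (SE), adjusted p = 0.00433) lost its call without mouse 1 (log2 0.61, adjusted p = 0.0534).

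Gpx2, a glutathione peroxidase of epithelia, was at 43.6, 44.9, 38.5 and 43.6 CPM in untreated and 47.5, 48.4, 50.4 and 43.8 CPM in N1-AcSpd CD34− libraries, which overlapped. It was at 125, 99.5, 104 and 98.8 CPM in untreated and 173, 149, 165 and 155 CPM in N1-AcSpd CD34+ libraries, which were separate. The log2 fold change was 0.16 ± 0.078 (SE), adjusted p = 0.411 in CD34− cells and 0.58 ± 0.078 (SE), adjusted p = 0.00727 in CD34+ cells, the latter lost without mouse 2, 3 or 4 (0.56 to 0.63). The mean of both fractions (0.37 ± 0.055 (SE), adjusted p = 0.00387) lost its call without mouse 3 (log2 0.32, adjusted p = 0.0540). Fntb, on the opposite strand, overlaps Gpx2 and was counted at 599% of it, and tags of the pair cannot be told apart if strand was not used. Over the 16 libraries, which share 4 mice and 4 groups, the log2 levels of the pair had a correlation of 0.022.

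Slc7a11, the cystine importer, had 0.41 ± 0.16 in CD34− and 0.21 ± 0.16 in CD34+ cells, higher in 8 of 8 pairs and not called, though the mean of both fractions was called with mouse as a block (log2 0.31, adjusted p = 0.0191). Gclc, the catalytic subunit of the rate-limiting enzyme of glutathione synthesis, had -0.23 ± 0.15 in CD34− cells, where all 4 mice were lower with N1-AcSpd, and 0.36 ± 0.15 in CD34+ cells, where all 4 were higher. Neither change was called, and nor was the difference between them.

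Gclm, the regulatory subunit of the same enzyme (ENSMUSG00000028124, chromosome 3, 122245557 to 122270732), is given because its counts fell into separate classes, and was chosen after its values were seen. It was at 642, 40.7, 644 and 637 CPM in untreated and 650.1, 667, 49.9 and 662 CPM in N1-AcSpd CD34− libraries, and at 634, 639, 643 and 621 CPM in untreated and 682, 672, 682 and 71.4 CPM in N1-AcSpd CD34+ libraries. The 3 libraries of untreated CD34− mouse 2, N1-AcSpd CD34− mouse 3 and N1-AcSpd CD34+ mouse 4 stood far below the other 13. Gm6061, a transcribed processed pseudogene within Gclm on the same strand, showed the same classes, at 603, 0.958, 603 and 597 CPM in untreated and 605, 618, 1.25 and 612 CPM in N1-AcSpd CD34− libraries, and its mean count over all libraries was 90.5% of that of Gclm. A further transcript on the opposite strand, Gm17494, overlaps Gclm with 236% of the counts of Gclm. As counted, Gclm had log2 fold changes of 0.047 ± 0.83 and -0.27 ± 0.83 in CD34− and CD34+ cells.

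Subtracting the Gm6061 count of the same library, an alternative added after the data were seen, left Gclm at 39.1, 39.8, 41.1 and 40.3 CPM in untreated and 45, 48.3, 48.6 and 49.2 CPM in N1-AcSpd CD34− libraries. The CD34+ libraries then held 51.0, 55.3, 48.0 and 56.8 CPM untreated and 68.4, 69.1, 72.0 and 70.2 CPM with N1-AcSpd, so that treated libraries exceeded untreated ones in both fractions. On these counts the log2 fold change was 0.25 ± 0.048, adjusted p = 0.0403 in CD34− cells and 0.41 ± 0.048, adjusted p = 0.00504 in CD34+ cells. Gclm would then add 1 to the count of called members in each comparison except the interaction.

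**Figure D2:**
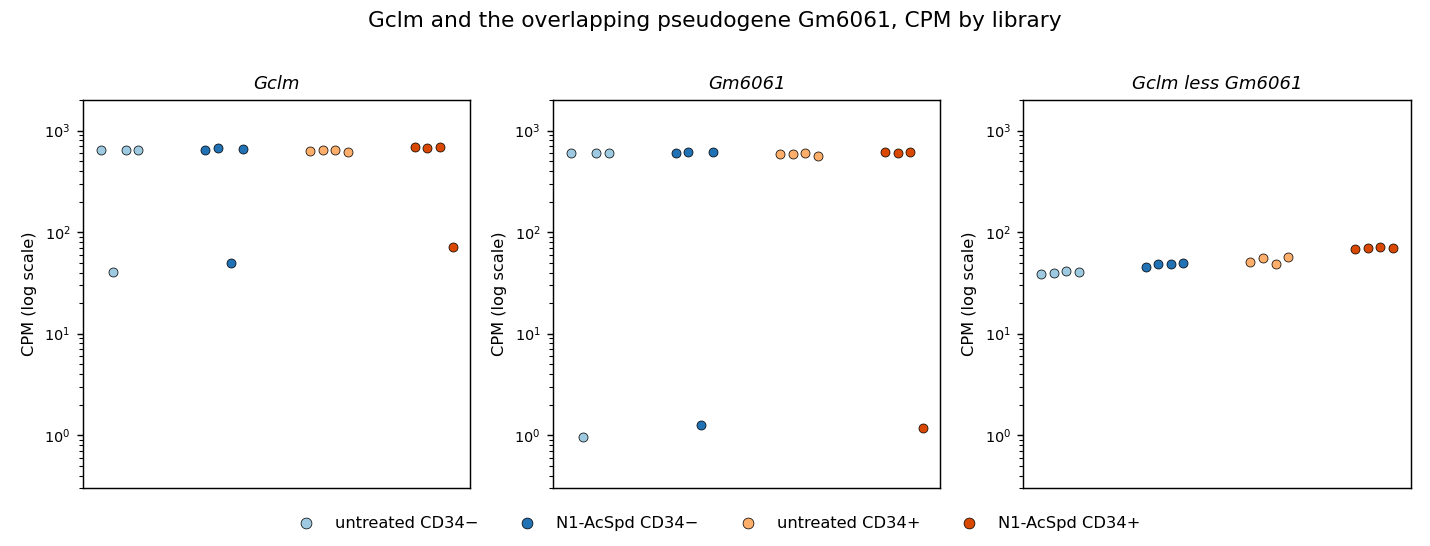
CPM by library on a log axis for Gclm, for the overlapping pseudogene Gm6061 and for their difference, with 4 libraries in each of the 4 groups. The same 3 libraries are low for Gclm and Gm6061, and the difference lies between 39.1 and 72.0 CPM in all 16.

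Among 6 genes of the thioredoxin system, peroxiredoxins and catalase, all 6 had positive log2 fold changes in both fractions. The median over all genes was 1.24e-04 in CD34− and -0.014 in CD34+ cells. How many of all genes were positive was not counted, so nothing is read from the shared sign. Prdx1 was called in CD34+ cells, beside 0.189% of all genes called higher there. Prdx1, a peroxidase that thioredoxin reduces, was at 1106, 1118, 1093 and 1146 CPM in untreated and 1169.7, 1198, 1236 and 1243 CPM in N1-AcSpd CD34− libraries. It was at 1105, 1139.9, 1113 and 1141 CPM in untreated and 1221, 1236, 1364 and 1288 CPM in N1-AcSpd CD34+ libraries. The groups were separate in both fractions though the change was small (0.12 ± 0.032 (SE), adjusted p = 0.117 in CD34− and 0.18 ± 0.032 (SE), adjusted p = 0.0357 in CD34+ cells). The CD34+ call was lost without any 1 mouse (0.15 to 0.21) and without 8 of 16 single libraries, while that of the mean (0.15 ± 0.023 (SE), adjusted p = 0.00423) was made in each of these cases. Under scaling by library totals the CD34+ call was lost too (log2 0.19, adjusted p = 0.0537). DESeq2 called Prdx1 in both fractions.

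Txn1 (thioredoxin) was at 2848, 3050.2, 2848 and 3180.4 CPM in untreated and 2969.9, 3145, 3232 and 3546 CPM in N1-AcSpd CD34− libraries, and at 2838, 3000.4, 2927 and 2949 CPM in untreated and 3401, 3162, 4102 and 3518 CPM in N1-AcSpd CD34+ libraries. Txnrd1 (thioredoxin reductase, which passes electrons from NADPH to thioredoxin) was at 6.84, 9.39, 7.36 and 6.81 CPM in untreated and 9.57, 12.2, 10.1 and 10.9 CPM in N1-AcSpd CD34− libraries. It was at 8.99, 8.83, 8.83 and 8.11 CPM in untreated and 10.7, 11.4, 8.16 and 8.63 CPM in N1-AcSpd CD34+ libraries. Thus the separate groups were the CD34+ ones for Txn1 and the CD34− ones for Txnrd1. In the reported edgeR fit both were called only in the mean, at 0.19 ± 0.050 (SE), adjusted p = 0.0408 and 0.33 ± 0.087 (SE), adjusted p = 0.0459. Both calls were lost without any 1 mouse (log2 0.15 to 0.24 and 0.31 to 0.38) and without 13 and 12 of 16 single libraries. After thinning to equal totals the call of Txnrd1 was lost as well (log2 0.35, adjusted p = 0.0613). With mouse as a block Txnrd1 was also called in CD34− cells (log2 0.50, adjusted p = 0.0284). DESeq2 called Txn1 in CD34+ cells and Txnrd1 in CD34− cells. Srxn1 (sulfiredoxin), Prdx6 and Cat (catalase) were not called, with log2 fold changes from 0.016 (Srxn1) to 0.15 (Cat) in CD34− and from 0.041 (Cat) to 0.20 (Srxn1) in CD34+ cells.

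The 5 genes of the pentose phosphate pathway and NADPH supply were all positive in both fractions, with 3 called in CD34− cells, 2 in CD34+ cells and 3 in the mean. Beside these, 0.373%, 0.189% and 2.70% of all genes were called higher. The median log2 fold change over all genes was 1.24e-04 in CD34− and -0.014 in CD34+ cells. G6pdx (glucose-6-phosphate dehydrogenase, which commits glucose to the pathway, ENSMUSG00000031400, chromosome X, 74409483 to 74429194) was at 25.8, 28.5, 27.1 and 29.9 CPM in untreated and 33.8, 33.3, 35.2 and 35.3 CPM in N1-AcSpd CD34− libraries. The CD34+ libraries held 17.2, 17.5, 19.4 and 16.2 CPM untreated and 23.8, 24.9, 25.6 and 25.1 CPM with N1-AcSpd. Both pairs of groups were separate, and N1-AcSpd CD34+ cells lay just under the untreated CD34− range. The log2 fold change was 0.31 ± 0.056 (SE), adjusted p = 0.0347 in CD34− and 0.50 ± 0.057 (SE), adjusted p = 0.00501 in CD34+ cells. Ikbkg overlaps G6pdx on the opposite strand and had 129% of its counts, with a correlation of log2 levels of 0.99 over the 16 libraries, so the tags of the pair cannot be told apart here.

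Pgd (6-phosphogluconate dehydrogenase, the other NADPH-forming step) was at 37.2, 36.5, 39.4 and 38.1 CPM in untreated and 43.7, 45.2, 45.6 and 42.0 CPM in N1-AcSpd CD34− libraries. It was at 28.4, 29.7, 28.2 and 27.6 CPM in untreated and 35.5, 35.6, 32.5 and 34.9 CPM in N1-AcSpd CD34+ libraries, again without overlap (0.22 ± 0.040 (SE), adjusted p = 0.0323 in CD34− and 0.28 ± 0.040 (SE), adjusted p = 0.00867 in CD34+ cells). Taldo1 (transaldolase, of the branch that returns sugars to glycolysis) was at 80.9, 83.4, 81.2 and 86.4 CPM in untreated and 91.2, 97.8, 97.7 and 97.7 CPM in N1-AcSpd CD34− libraries. It was at 77.3, 84.4, 75.4 and 79.3 CPM in untreated and 82.8, 87.2, 86.7 and 87.3 CPM in N1-AcSpd CD34+ libraries, which overlapped. It was called in CD34− cells (0.21 ± 0.040 (SE), adjusted p = 0.0375) and not in CD34+ cells (0.12 ± 0.040 (SE), adjusted p = 0.219). DESeq2 called Taldo1 in both fractions. Tkt (transketolase) and Me1 (malic enzyme, a further source of NADPH) were not called, at 0.040 and 0.17 in CD34− and 0.14 and 0.36 in CD34+ cells.

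In CD34− cells the calls of G6pdx, Pgd and Taldo1 were lost without any 1 mouse (0.28 to 0.33, 0.19 to 0.25 and 0.20 to 0.22), without 7, 7 and 9 of 16 single libraries, and after thinning to equal totals. In CD34+ cells they were lost for G6pdx without mouse 1, 2 or 4 (0.46 to 0.54) and Pgd without mouse 1, 2 or 4 (0.27 to 0.31). In the mean of both fractions G6pdx (0.40 ± 0.040 (SE), adjusted p = 2.85e-04) and Pgd (0.25 ± 0.028 (SE), adjusted p = 7.03e-04) kept their call without each mouse, whereas Taldo1 (0.17 ± 0.028 (SE), adjusted p = 0.00657) lost it without mouse 3 or 4 (0.15 to 0.18).

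Of 5 genes of haem and iron handling, Fth1 was called, in the mean of both fractions (0.23 ± 0.048 (SE), adjusted p = 0.0183), beside 2.70% of all genes called higher. This ferritin heavy chain gene was at 668, 613, 659 and 557 CPM in untreated and 689, 679.5, 724 and 624 CPM in N1-AcSpd CD34− libraries, and at 709.8, 712, 722 and 649 CPM in untreated and 899, 853, 966 and 802 CPM in N1-AcSpd CD34+ libraries. The CD34+ groups were separate and the CD34− groups were not. In CD34+ cells the change missed the threshold (0.33 ± 0.068 (SE), adjusted p = 0.0606) and passed it with mouse as a block (log2 0.33, adjusted p = 0.00224). DESeq2 called Fth1 in CD34+ cells too. The call of the mean was lost without mouse 1, 2 or 3 (0.21 to 0.24). A pseudogene copy, Gm6977, held 9.55% of the counts of Fth1, and copies of the light chain gene Ftl1 held up to 79.5% of those of Ftl1.

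Hmox1, haem oxygenase and a classical stress-responsive target, was at 1.25, 1.40, 1.82 and 1.17 CPM in untreated and 2.52, 1.88, 1.82 and 1.64 CPM in N1-AcSpd CD34− libraries. It was at 0.626, 0.439, 0.650 and 0.668 CPM in untreated and 0.928, 0.796, 0.491 and 1.12 CPM in N1-AcSpd CD34+ libraries. The ranges overlapped in both fractions, and the log2 fold changes (0.48 ± 0.23 (SE), adjusted p = 0.394 and 0.48 ± 0.25 (SE), adjusted p = 0.436) were not called despite their size, at between 8 and 61 tags in a library. Ftl1, Blvrb (biliverdin reductase) and Slc48a1 (a haem transporter) were not called. Ftl1 had a log2 fold change of 0.24 in CD34− and 0.20 in CD34+ cells, and those of the other two lay between -0.015 and 0.14. Osgin1, a growth inhibitor induced by oxidative stress, was at 3.35, 4.47, 3.98 and 3.65 CPM in untreated and 3.88, 7.06, 5.78 and 5.17 CPM in N1-AcSpd CD34− libraries. It was at 2.79, 2.08, 3.14 and 2.52 CPM in untreated and 3.08, 3.13, 3.80 and 3.29 CPM in N1-AcSpd CD34+ libraries, higher in 8 of 8 pairs and not called (0.42 ± 0.12 (SE), adjusted p = 0.0600 in the mean). With mouse as a block, the mean was called for Osgin1 (log2 0.41, adjusted p = 0.0485), Ftl1 (log2 0.22, adjusted p = 0.00350) and Ephx1 (log2 0.22, adjusted p = 0.0136), and Ftl1 was called in CD34− cells (log2 0.24, adjusted p = 0.0260). DESeq2 called the mean for Osgin1 and Ftl1 too.

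**Figure D3:**
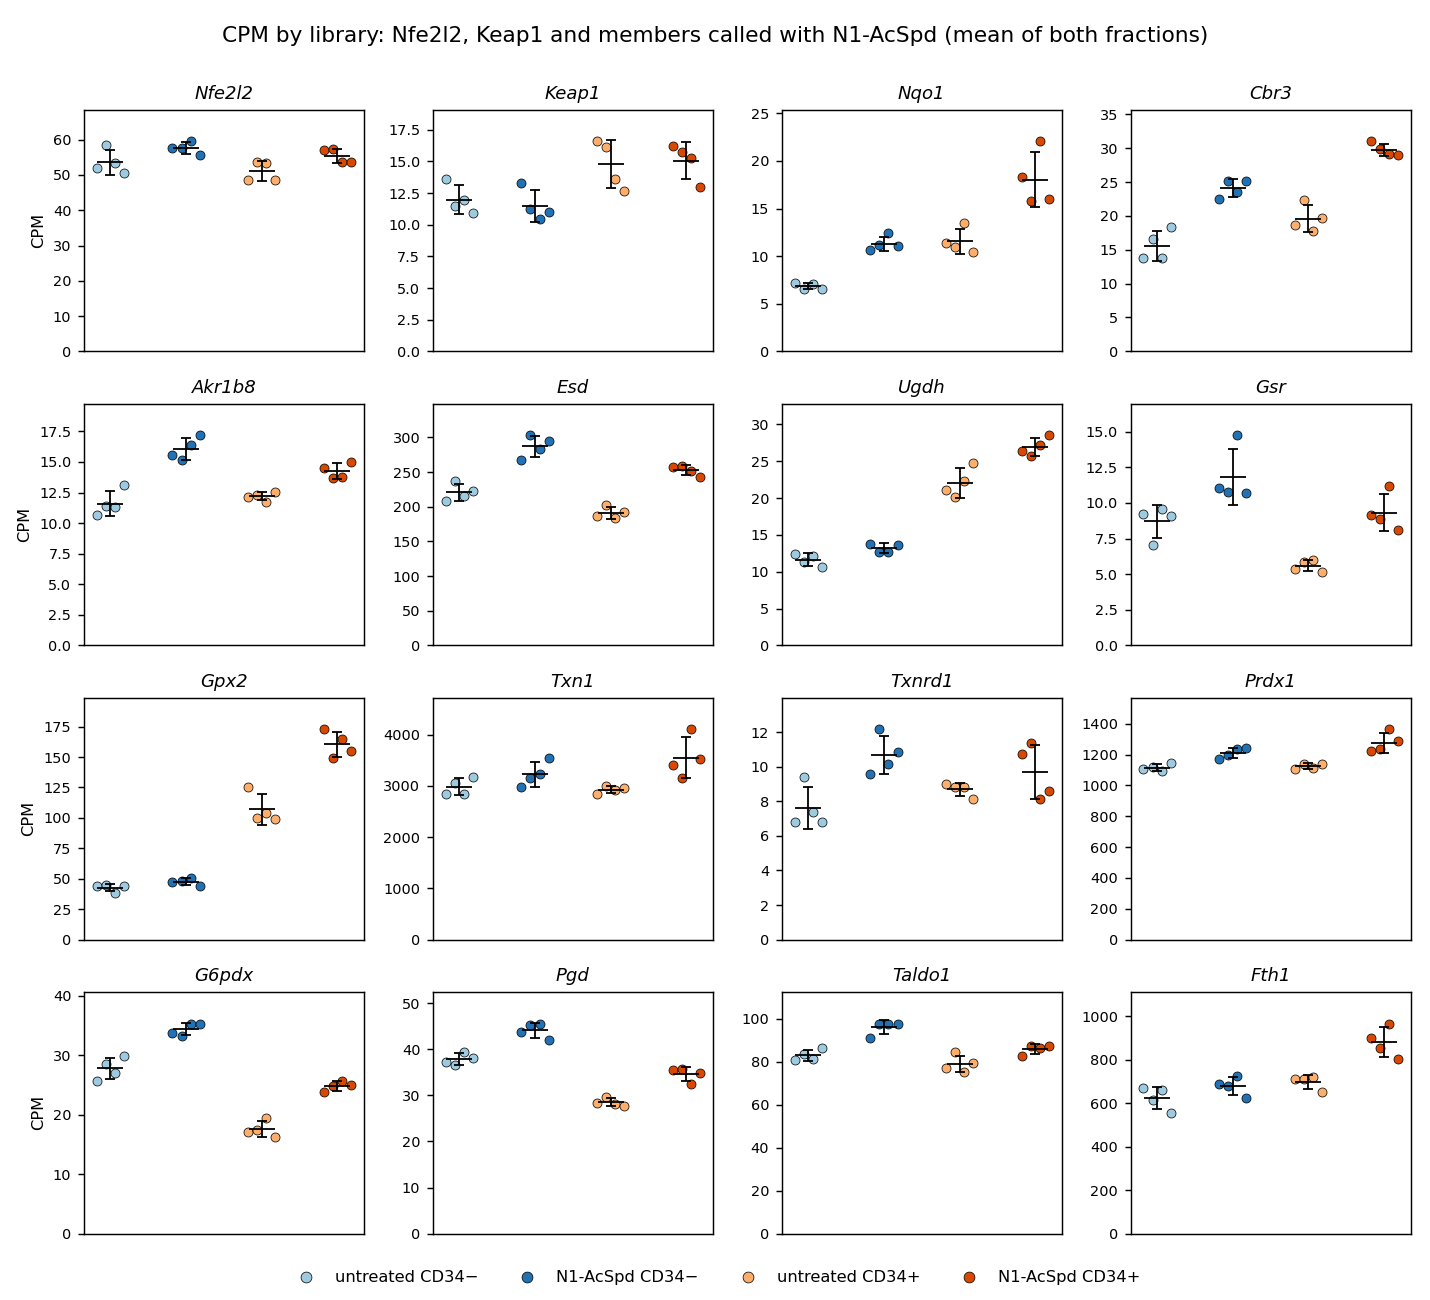
CPM by library (y axes from 0) for Nfe2l2, Keap1 and the 14 members called in the mean treatment effect, in untreated (light) and N1-AcSpd (dark) libraries of CD34− (blue) and CD34+ (orange) cells. Points are single mice and bars are the mean ± SD of 4 libraries, and Nqo1 is seen to rise from 6.51–7.14 to 10.7–12.4 CPM in CD34− and from 10.5–13.4 to 15.8–22.1 CPM in CD34+ cells.

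The difference between the treatment effects of the fractions was tested as an interaction, and edgeR called 0 of 33 members, as it did over all genes (0% higher and 0% lower, with 799 of 19049 genes at an unadjusted p under 0.05). Of the members, 6 had an unadjusted p under 0.05 (Akr1b8, Mgst1, Gclc, Gpx2, G6pdx and Fth1). Gpx2 rose by 0.58 in CD34+ and by 0.16 in CD34− cells, a difference of 0.43 ± 0.11 (SE), adjusted p = 1.00. DESeq2 called Gpx2 as the only member (0.44 ± 0.12 (SE), adjusted p = 0.0424) and 71 of all genes. Akr1b8 had the opposite sign, at -0.25 ± 0.086 (SE), adjusted p = 1.00. For Akr1b8, Gsr, Prdx1 and Taldo1, each called in 1 fraction by edgeR, no difference between fractions was thus shown.

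The antioxidant response element that NRF2 binds has the core letters TGACNNNGC, and the related AP-1 site TGANTCA can overlap it. Both were searched on both strands in the 250 bases before each RefSeq start site on GRCm38.p6. Of 34 members, 28 had a window, and Abcc1, Gclc, Gsr, Prdx6, Hmox1 and Slc48a1 had none in the table used. The core was found in 7 of 28 members (25%), beside 11.515% of 27025 genes and 10.161% of 32851 windows, and the AP-1 letters in 4 of 28 (14.286%), beside 7.819% of genes and 6.749% of windows. Members with the core were Nfe2l2, Ugdh, Mgst1, Gclm, Txnrd1, Prdx1 and G6pdx. The stretches around it are shown for the members that rose with N1-AcSpd in the mean of both fractions and for Gclm, 5′ to 3′ on the strand of the gene and with the core in capitals.
Ugdh (chr5:65435903-65435999, - strand): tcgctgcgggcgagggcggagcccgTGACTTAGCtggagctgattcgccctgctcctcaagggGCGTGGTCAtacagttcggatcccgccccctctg
Txnrd1 (chr10:82859089-82859147, + strand): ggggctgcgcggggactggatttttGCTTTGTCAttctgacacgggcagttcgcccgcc
Prdx1 (chr4:116685441-116685499, + strand): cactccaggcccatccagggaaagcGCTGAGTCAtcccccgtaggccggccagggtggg
G6pdx (chrX:74428904-74428962, - strand): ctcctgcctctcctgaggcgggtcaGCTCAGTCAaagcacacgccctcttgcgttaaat
Gclm (chr3:122245398-122245456, + strand): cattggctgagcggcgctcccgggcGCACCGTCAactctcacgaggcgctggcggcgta
Ugdh has the core at 2 places, starting 132 and 94 bases before the start site, and the others have it once, at 92 (Txnrd1), 133 (Prdx1), 57 (G6pdx) and 134 (Gclm) bases before it. Txnrd1 also has windows of other start sites, from 82833701 and from 82860091 on chromosome 10, without the core. Apart from the forward copy in Ugdh, the printed cores are on the reverse strand, so that they read GC first and GTCA last. In Prdx1 the core overlaps the AP-1 letters. For Nqo1, Cbr3, Akr1b8, Esd, Gpx2, Pgd, Taldo1, Txn1 and Fth1, which rose as well, the letters are not in this window, which says nothing of elements further away.

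The fractions were also compared with each other, to ask which antioxidant genes separate HFSCs from their progenitors. In untreated HFSCs 5 of 9 detoxification genes were called higher and 2 lower, 1 of 5 glutathione genes higher and 1 lower, 0 of 6 thioredoxin, peroxiredoxin and catalase genes higher and 2 lower, 0 of 5 pentose phosphate and NADPH genes higher and 3 lower, and 1 of 5 haem and iron genes higher and 2 lower, and a difference between roles was not tested. In untreated cells 8 of 33 members were called higher in CD34+ cells and 11 lower, beside 16.1% of all genes higher and 16.1% lower. With N1-AcSpd 9 were higher and 11 lower, beside 16.5% and 16.8% of all genes, and 16 members were called under both conditions. The median log2 fold change of the members was 0.011 untreated and -0.057 with N1-AcSpd (0.022 and -0.0068 over all genes). Scaling by library totals moved the median over all genes to 0.14 and 0.11 and the split of the members to 12 higher and 7 lower untreated, and to 12 higher and 6 lower with N1-AcSpd. Nfe2l2 was called in neither condition (-0.070 and -0.057), with a sign that turned under that scaling (log2 0.043, adjusted p = 0.561 and log2 0.060, adjusted p = 0.399). All 12 differentiated keratinocyte markers were called lower in CD34+ cells under both conditions, and their part in the differences of the members was not tested.

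Gpx2 was furthest above, at 1.33 ± 0.080 (SE), adjusted p = 1.93e-07 untreated and 1.75 ± 0.080 (SE), adjusted p = 1.18e-08 with N1-AcSpd, so that untreated CD34+ libraries (98.8 to 125 CPM) all exceeded N1-AcSpd CD34− libraries (43.8 to 50.4 CPM). Ugdh was higher too (0.92 ± 0.068 (SE), adjusted p = 7.14e-07 and 1.03 ± 0.068 (SE), adjusted p = 2.56e-07). Mgst1 was at 26.5, 24.8, 20.1 and 21.6 CPM in untreated CD34− and 43.4, 41.9, 38.5 and 42.2 CPM in untreated CD34+ libraries, and at 23.2, 21.9, 15.8 and 16.6 CPM in N1-AcSpd CD34− and 47.8, 47.8, 44.4 and 46.1 CPM in N1-AcSpd CD34+ libraries. Its groups were separate under both conditions (0.84 ± 0.12 (SE), adjusted p = 1.03e-04 and 1.26 ± 0.12 (SE), adjusted p = 2.69e-06). Blvrb was at 7.82, 5.55, 6.71 and 5.28 CPM in untreated CD34− and 11.6, 10.4, 10.1 and 11.6 CPM in untreated CD34+ libraries, and at 6.31, 6.78, 7.98 and 5.99 CPM in N1-AcSpd CD34− and 10.5, 11.5, 10.4 and 10.8 CPM in N1-AcSpd CD34+ libraries, also without overlap (0.78 ± 0.12 (SE), adjusted p = 1.83e-04 and 0.68 ± 0.12 (SE), adjusted p = 4.63e-04). Nqo1 (0.76 and 0.67), Cbr3 (0.33 and 0.31) and Keap1 (0.30 and 0.39) were called higher under both conditions.

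Keap1 was close to the threshold in untreated cells (adjusted p = 0.0448). Its call there was lost without mouse 2, 3 or 4 (0.23 to 0.33), without 11 of 16 single libraries, after thinning (log2 0.30, adjusted p = 0.0639) and in DESeq2 (log2 0.28, adjusted p = 0.0654), and with N1-AcSpd it was lost without mouse 2 or 3 (0.34 to 0.44). The call of Cbr3 was lost without mouse 1, 2 or 3 untreated (0.29 to 0.41) and without mouse 1 or 3 with N1-AcSpd (0.25 to 0.34). Ephx1 was called higher in untreated CD34+ cells (0.54 ± 0.17 (SE), adjusted p = 0.0259), and Gclc (0.63 ± 0.15 (SE), adjusted p = 0.00424) and Fth1 (0.37 ± 0.068 (SE), adjusted p = 6.86e-04) with N1-AcSpd. With mouse as a block Cbr1 (log2 0.35, adjusted p = 0.0315) and Fth1 (log2 0.16, adjusted p = 0.00101) were called untreated and Ephx1 (log2 0.32, adjusted p = 0.00162) with N1-AcSpd.

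Hmox1 was lowest in HFSCs relative to progenitors, at -1.24 ± 0.25 (SE), adjusted p = 0.00162 untreated and -1.23 ± 0.24 (SE), adjusted p = 0.00119 with N1-AcSpd, and its groups were separate under both conditions. Me1 was at 6.23, 5.94, 5.76 and 7.31 CPM in untreated CD34− and 3.53, 2.96, 2.87 and 3.29 CPM in untreated CD34+ libraries, and at 8.58, 6.60, 7.94 and 5.37 CPM in N1-AcSpd CD34− and 4.79, 4.67, 3.25 and 3.46 CPM in N1-AcSpd CD34+ libraries. The HFSC libraries all lay below the progenitor libraries (-0.996 ± 0.16 (SE), adjusted p = 3.25e-04 and -0.81 ± 0.16 (SE), adjusted p = 0.00113). G6pdx (-0.66 ± 0.057 (SE), adjusted p = 1.57e-06 and -0.47 ± 0.056 (SE), adjusted p = 2.24e-05) and Pgd (-0.41 ± 0.040 (SE), adjusted p = 4.25e-06 and -0.35 ± 0.040 (SE), adjusted p = 1.49e-05) were lower under both conditions, while Tkt was called under neither (-0.069 and 0.028). Gsr was lower in untreated HFSCs (-0.64 ± 0.13 (SE), adjusted p = 0.00170) and not called with N1-AcSpd (-0.34 ± 0.13 (SE), adjusted p = 0.0526), except with mouse as a block (log2 -0.34, adjusted p = 0.0134), and the difference between the conditions was not called. Osgin1 was lower under both conditions (-0.55 ± 0.17 (SE), adjusted p = 0.0236 and -0.72 ± 0.17 (SE), adjusted p = 0.00417), the untreated call being lost without mouse 2, 3 or 4 (-0.64 to -0.38) and under library totals (log2 -0.44, adjusted p = 0.0660).

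Srxn1, Esd, Prdx6 and Slc48a1 were called lower in HFSCs under both conditions with smaller differences, from -0.40 (Srxn1) to -0.17 (Prdx6) untreated, where Abcc1 (-0.29) was called too, and from -0.25 (Slc48a1) to -0.19 (Esd) with N1-AcSpd, where Akr1b8 (-0.18) and Taldo1 (-0.16) joined them. Untreated, single libraries ended the call of Ephx1 (4 of 16, 0.45 to 0.63 over all), Osgin1 (4 of 16, -0.66 to -0.45 over all) and Slc48a1 (2 of 16, -0.21 to -0.15 over all). With N1-AcSpd they ended that of Akr1b8 (7 of 16, -0.20 to -0.14 over all), Srxn1 (11 of 16, -0.25 to -0.18 over all) and Cbr3 (1 of 16, 0.27 to 0.33 over all). Without 1 mouse, untreated calls were lost for Ephx1 without mouse 1, 2 or 4 (0.49 to 0.58) and Slc48a1 without mouse 1, 3 or 4 (-0.23 to -0.13), and calls with N1-AcSpd for Akr1b8 without mouse 1, 2 or 3 (-0.20 to -0.15), Srxn1 without any 1 mouse (-0.24 to -0.18) and Esd without mouse 4 (-0.23 to -0.15). Under scaling by library totals Esd (-0.094 and -0.070) and Slc48a1 (-0.060 and -0.14) were called in neither condition, Prdx6 was not called untreated (log2 -0.060, adjusted p = 0.208), and Akr1b8 (log2 -0.059, adjusted p = 0.531), Srxn1 (log2 -0.10, adjusted p = 0.381) and Taldo1 (log2 -0.043, adjusted p = 0.509) were not called with N1-AcSpd. After thinning to equal totals Akr1b8 (log2 -0.16, adjusted p = 0.0663) and Srxn1 (log2 -0.22, adjusted p = 0.0799) were not called with N1-AcSpd. Of the 14 members that rose with N1-AcSpd in the mean of both fractions, 4 were higher in untreated HFSCs (Nqo1, Cbr3, Ugdh and Gpx2), 4 were lower (Esd, Gsr, G6pdx and Pgd) and 6 were not called, so these genes did not share a direction between the fractions.

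**Figure D4:**
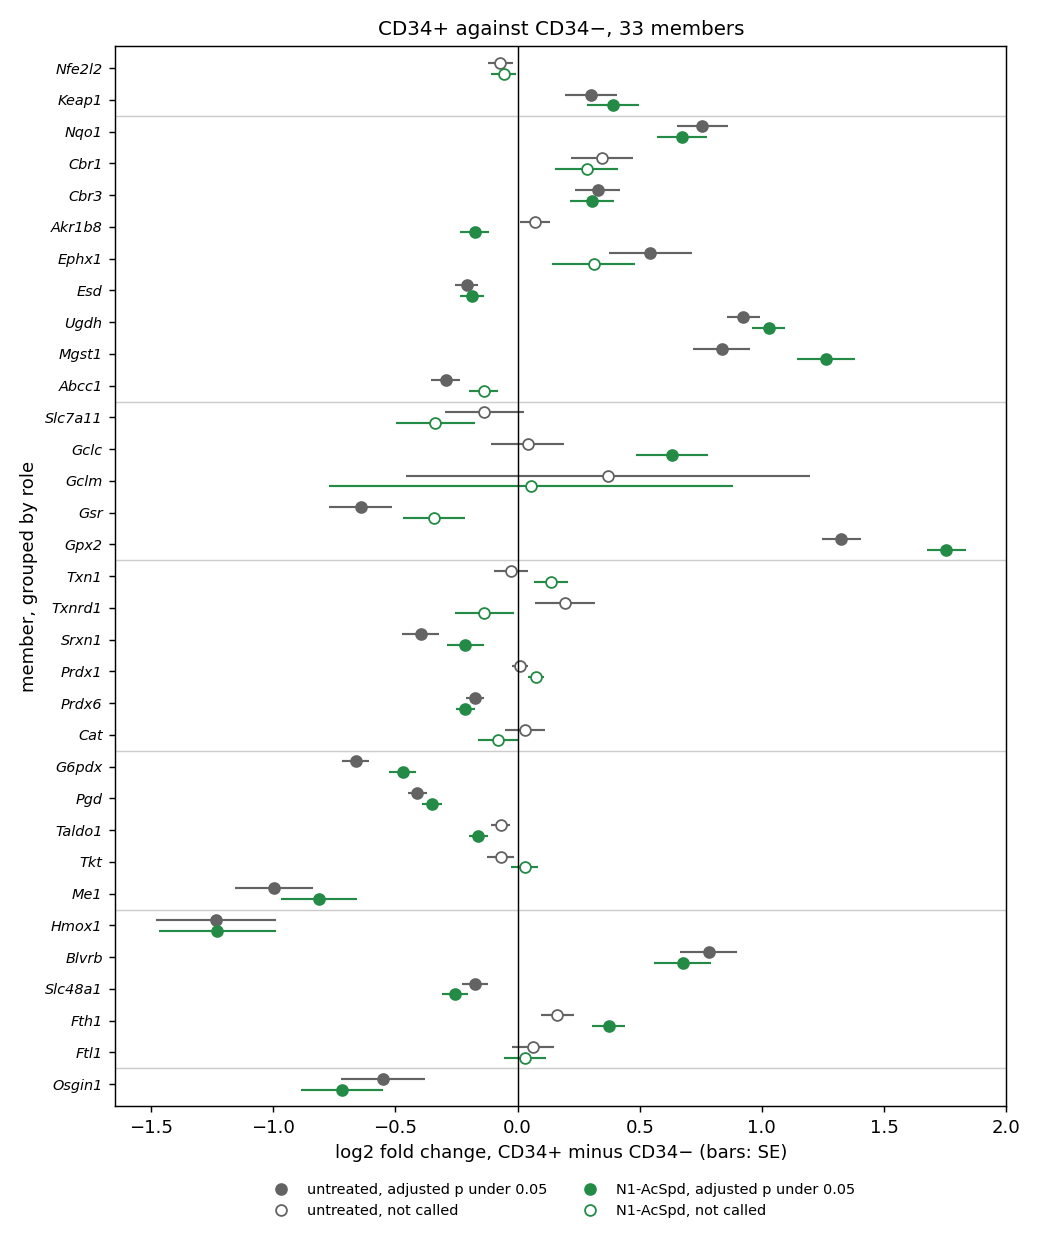
Log2 fold change (x axis) of each of the 33 tested members (y axis, grouped by role) for CD34+ against CD34− cells, untreated (grey) and with N1-AcSpd (green), with bars of 1 SE and filled points for an adjusted p under 0.05. Gpx2 lies furthest to the right at 1.33 and 1.75, and Hmox1 furthest to the left at -1.24 and -1.23.

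Other genes of the same pathways were taken from lists that were also drawn up with earlier results of these libraries known. Of all genes 0.373% rose and 0.241% fell in CD34− cells, 0.189% rose and 0.136% fell in CD34+ cells, and 2.70% rose and 2.16% fell in the mean. Of 33 other antioxidant and NADPH genes 1 rose and 1 fell with N1-AcSpd in CD34− cells, 0 rose and 1 fell in CD34+ cells, and 2 rose and 2 fell in the mean. Gss, which completes glutathione synthesis, rose in CD34− cells (0.34 ± 0.059 (SE), adjusted p = 0.0261), and Gpx1 rose in the mean (0.20 ± 0.053 (SE), adjusted p = 0.0467). Pgls, the lactonase between G6pdx and Pgd, fell in CD34− cells (-0.23 ± 0.043 (SE), adjusted p = 0.0370), and Msrb1, a methionine sulfoxide reductase, fell in CD34+ cells (-0.34 ± 0.065 (SE), adjusted p = 0.0485). Of 28 further detoxification and iron genes, Akr1b3 rose in CD34− cells (0.33 ± 0.065 (SE), adjusted p = 0.0420) and in the mean, where Aldh3a2 fell (-0.30 ± 0.065 (SE), adjusted p = 0.0210), and 0 were called in CD34+ cells. Of 23 glutathione S-transferases 2 rose in CD34− cells, 3 in CD34+ cells and 8 in the mean, with 0 lower, led by Gsta4 (0.99 ± 0.16 (SE), adjusted p = 0.0188) and Gsta1 in CD34− cells, Gstm1 (0.51 ± 0.072 (SE), adjusted p = 0.00867) and Gstp1 in CD34+ cells, and Gsta3 and Gsta2 in the mean. Gstp1 and Gstp2 are near-identical in sequence and their counts may be shared.

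Between fractions, where 16.1% of all genes were called higher and 16.1% lower untreated and 16.5% and 16.8% with N1-AcSpd, 11 of the 33 other antioxidant genes were called higher in HFSCs and 7 lower under each condition, with Txnip (1.59 ± 0.36 (SE), adjusted p = 0.00366) and Gpx3 highest and Glrx (-1.85 ± 0.13 (SE), adjusted p = 4.71e-07) and Ggct lowest in untreated cells, and Txnip, Prdx4, Glrx and Ggct in these places with N1-AcSpd. Of the 28 detoxification and iron genes 9 were higher and 2 lower untreated, the former led by Slc40a1 (the iron exporter ferroportin, 2.41 ± 0.35 (SE), adjusted p = 1.58e-04) and Aldh3a1, and the latter being Ces2g (a carboxylesterase) and Trex1 (a DNA exonuclease). With N1-AcSpd 10 were higher and 3 lower, led by the same 4 genes. Of the glutathione S-transferases 9 were higher and 4 lower untreated and 11 and 4 with N1-AcSpd, with Gstm2 (1.41 ± 0.13 (SE), adjusted p = 3.20e-06) and Gstm1 highest and Gsta2 (-4.04 ± 0.61 (SE), adjusted p = 2.07e-04) and Gsta1 lowest in both. Of the NRF2 regulators 0 were higher and 2 lower untreated, Nfe2l3 (-1.43 ± 0.28 (SE), adjusted p = 0.00132) and Btrc, and 1 was higher (Bach1) and 4 lower with N1-AcSpd, led by Nfe2l3 and Mafk.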

How the data were processed

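RNA of 16 sorted samples was sequenced as 3′ tags with UMIs. Per the labels, RNA was taken with QIAzol and an RNeasy kit, barcoded by sample at reverse transcription, pooled as cDNA and tagmented. The authors separated samples with FLEXBAR, pseudo-aligned the second read to mm10 with kallisto (version 0.45.0 in the submitters' processing notes, which also name FastQC 0.11.7), used BEDTools to place tags on genes, and took the number of distinct UMI tags per gene. Whether strand was used was not given in the sources used here. The deposited table holds these counts, not normalised, for 32989 gene identifiers, and 156050 empty cells were read as 0. Identifiers without a symbol held 0.1161% of counts. Symbols and positions came from GENCODE M21 (GRCm38), which lacks 62 identifiers. Libraries held 15480075 to 29074855 UMIs.

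The 19049 genes whose mean count reached 5 were fitted with edgeR 4.0.16 (TMM scaling, quasi-likelihood test, 1 mean per group over all 16 libraries, R 4.3.3), and p-values were Benjamini-Hochberg adjusted over all of them. A change was called at an adjusted p under 0.05. All adjusted p-values in the text are from edgeR's two-sided test unless DESeq2 (1.42.0) is named. Contrasts were CD34+ against CD34− in each condition, N1-AcSpd against untreated in each fraction, the mean of both treatment effects, and their difference. Steps were tested on simulated counts first. Comparisons that share libraries (the fractions with the treatments, and the mean with its parts) are not independent.

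The same replicate number stands for the same mouse in all 4 groups per the labels, so that samples are paired by mouse. Deviations of the 24 same-mouse pairs of libraries from their group means correlated at a mean r of 0.024 (-0.088 to 0.12). No library was a copy of another, as libraries of a group differed by a chi-square of at least 26.0 for each degree of freedom. Alternatives were the mouse as block, DESeq2, other scalings and filters, only the compared groups, a limit of 0.5 on the log2 fold change, thinning to 15480075 UMIs, and leaving out each library or mouse. Gclm less Gm6061 was added after the data were seen.

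The members and all gene lists were chosen with earlier results of these data known. Values by library were given for Nfe2l2, Keap1, members called for treatment and the 4 called members furthest in each direction between fractions. Gclm and other members named with a log2 fold change only were chosen after their values were seen. Sequences are RefSeq windows on GRCm38.p6.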

Additional observations from a re-analysis of the deposited data

Results flagged for a closer look

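In 10 of 132 groups of 4 libraries 1 library stood apart from the other 3 by Dixon's test, where chance flags about 1 in 20, or 6.6 of 132. Of these, 3 are the low Gclm libraries, untreated CD34− mouse 2 at 40.7 CPM, N1-AcSpd CD34− mouse 3 at 49.9 CPM and N1-AcSpd CD34+ mouse 4 at 71.4 CPM, in each of which Gm6061 is low too. Taldo1 was low in mouse 1 of both treated groups, at 91.2 CPM in CD34− and 82.8 CPM in CD34+ cells. Gsr was high in N1-AcSpd CD34− mouse 3 (14.7 CPM). Fth1 was low in untreated CD34+ mouse 4 (649 CPM). Among members not called for treatment, Cbr1 stood apart in N1-AcSpd CD34+ mouse 4 (18.6 CPM), Slc7a11 in untreated CD34+ mouse 3 (4.77 CPM) and Gclc in untreated CD34+ mouse 4 (6.21 CPM).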

How the results depend on the processing

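The log2 fold changes of 81 results were recomputed under the alternatives, giving 2336 values. These results were the calls of the reported fits and the effects of Nfe2l2, Keap1 and Gclm. Of the values, 2013 kept their direction and their side of the threshold, 286 lost a call, 6 gained one and 31 changed sign. Most of these results were already called, so few could gain a call, and losses are not weighed against gains. Calls gained by other members are not in this count. Calls with an added limit of 0.5 on the absolute log2 fold change numbered 11 and 9 between fractions (untreated and N1-AcSpd), 2 and 4 for treatment (CD34− and CD34+) and 3 in the mean of both fractions. For treatment in CD34− cells (7 calls), 4 were made without a filter on low counts, 11 with mouse as the paired block, 0 from the compared groups alone and 4 after thinning to equal totals. For treatment in CD34+ cells (8 calls), 3 were made from the compared groups alone. DESeq2 called 1 member for the interaction. Other counts under these settings, under DESeq2 size factors, library totals and edgeR's own filter stayed within 1.5 times the reported one, and apart from the calls named in the report the mouse block changed no call except that of Slc7a11 between fractions with N1-AcSpd (log2 -0.33, adjusted p = 0.0148).

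Without 1 library the count of calls ran from 4 to 8 (treatment, CD34−), 4 to 9 (CD34+), 12 to 15 (mean), 15 to 20 (untreated fractions) and 18 to 20 (fractions with N1-AcSpd), and without 1 mouse from 1 to 1, 0 to 3, 8 to 11, 15 to 16 and 17 to 18. Calls over all genes were not counted in these fits. The sign changed for Nfe2l2 between fractions under library totals (0.043 untreated and 0.060 with N1-AcSpd). Keap1 changed sign in the mean treatment effect after thinning (0.020), and its treatment effect ran from -0.14 to 0.00446 without 1 library and -0.083 to -0.013 without 1 mouse in CD34− cells, from -0.021 to 0.095 without 1 library and -0.00930 to 0.052 without 1 mouse in CD34+ cells, and from -0.055 to 0.017 without 1 library and -0.027 to -0.00819 without 1 mouse in the mean. Gclm as counted ran from -0.016 to 0.53 without 1 library and -0.019 to 0.53 without 1 mouse between untreated fractions, from -0.32 to 0.42 without 1 library and -0.48 to 0.57 without 1 mouse between fractions with N1-AcSpd, from -0.34 to 0.43 without 1 library and -0.50 to 0.59 without 1 mouse for treatment in CD34− cells, from -0.42 to 0.10 without 1 library and -0.42 to 0.088 without 1 mouse in CD34+ cells and from -0.30 to 0.079 without 1 library and -0.45 to 0.094 without 1 mouse in the mean. Less Gm6061 it was 0.41 in CD34+ cells and 0.33 in the mean. In the reported fits none of these Nfe2l2, Keap1 and Gclm effects was called, and the causes were not tested. Hmox1, with 8 to 61 tags in a library, was the tested member with the fewest tags.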
